A study of Homo sapiens with 10 samples.

Results

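Replicate libraries of one cell line are usually averaged; here the difference between them was the object of study. In SNU398 cells, a human line established from a hepatocellular carcinoma, the 2 RNA-seq libraries carrying the number 2 were compared with the 2 libraries carrying the number 1. The 4 libraries were chosen from the 10 of the series by the replicate number and the assay in their labels, and no measured value entered the choice. Each number occurs once in each of 2 groups. The knockdown libraries came from cells transduced with the short hairpin RNA that the labels call shRNA-2, directed against the transcription factor SALL4, and the scramble libraries from cells transduced with a scrambled hairpin. Both groups were grown in RPMI medium with serum, and total RNA was taken 72 hours after transduction and read as paired ends. What a replicate number stands for is not given in the labels, nor whether equally numbered libraries were cultured, transduced or sequenced together. The p-values therefore speak of these 4 libraries only. They rest on a spread that is mostly shared over genes, as described below, and that may be technical.

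The libraries held 158934493 to 225624957 gene counts. Levels are given as CPM, counts scaled to a common library total by TMM, always in the order knockdown 1, knockdown 2, scramble 1, scramble 2. Differences are on the log2 scale and are replicate 2 minus replicate 1. The tested difference comes from an edgeR fit with hairpin and replicate number as terms, and a gene is called when its adjusted p is under 0.05. The knockdown pair and the scramble pair each also give a difference of their own, which has no replicate check and no test. SALL4 itself read 21.6, 18.7, 74.5 and 58.7 CPM and was lower in both libraries of the hairpin that targets it. Its replicate difference was -0.28 (SE 0.13, adjusted p = 0.213) and was not called. Of the markers for mature hepatocytes, ALB, which encodes serum albumin, was under 1 CPM in every library, while the liver factor FOXA1 read 75.2, 80.6, 40.8 and 39.0 CPM. The summed level of 14 leukocyte markers was 7.952, 8.581, 12.23 and 14.74 CPM, most of it from CORO1A, and that of 8 erythroid markers was 0.2787 to 0.4969 CPM.

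Several programmes that recur below are well known. Under low oxygen the transcription factor HIF escapes degradation and raises genes for glucose uptake, glycolysis, mitophagy and collagen modification. Mitochondrial DNA encodes a small set of respiratory chain subunits and its own ribosomal RNAs, all transcribed inside the organelle. Replication-dependent histone genes are read in S phase and end in a stem-loop in place of a poly(A) tail. Several long noncoding RNAs are the primary transcripts from which microRNA hairpins are cut.

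Of 25807 genes tested, 825 were called higher in replicate 2 (3.2% of those tested) and 1067 lower (4.13%). The pair differences had the same sign for 1885 of these 1892 genes. In 279 genes called higher and 534 called lower, both pairs moved by at least 0.5. Without the hairpin as a term the same test called 0 genes, with 1263 at an unadjusted p under 0.05, so the calls rest on comparing like hairpin with like. Leaving out 1 library in a fit without that term gave 2 calls without knockdown 1, 4 without knockdown 2, 1 without scramble 1 and 0 without scramble 2. With 3 coefficients on 4 libraries only 1 residual degree of freedom remained, and for 24343 genes the spread was taken entirely from the trend over all genes. The SE printed is the size of the difference divided by the square root of the test's F value. For those genes it does not reflect a gene's own gap between the pairs. A call therefore says more about the mean of the pairs than about their agreement, and the pair values are given beside it.

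**Figure D1:**
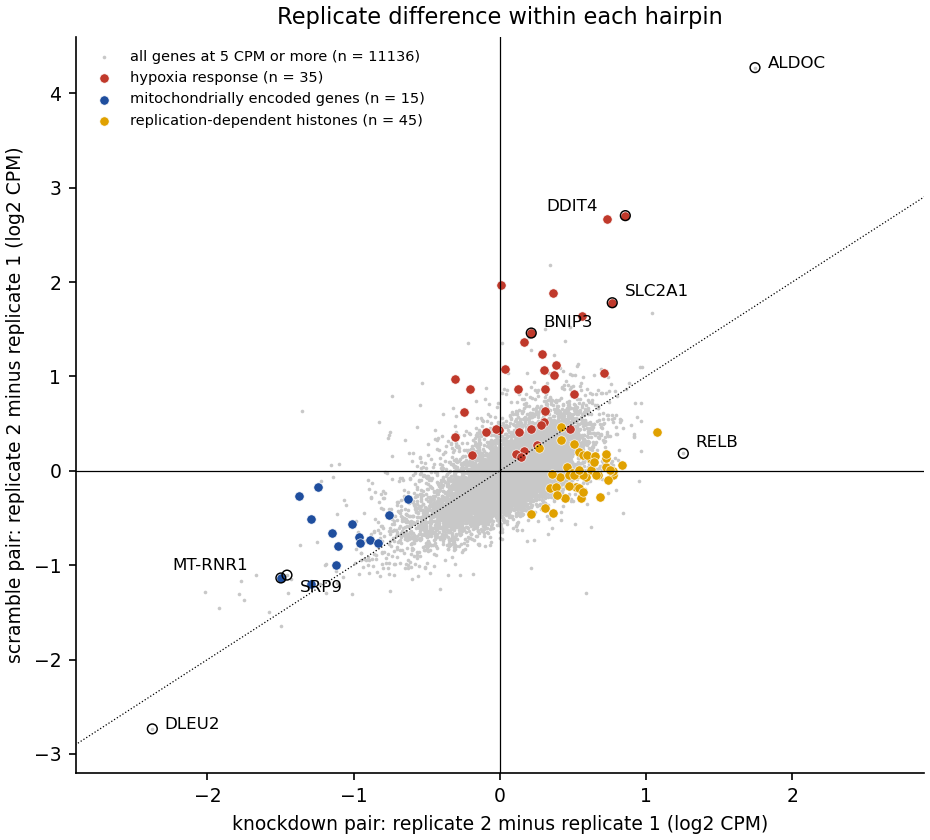
Replicate 2 minus replicate 1 (log2 CPM) in the knockdown pair (horizontal axis) and in the scramble pair (vertical axis) for the 11136 genes at a mean of 5 CPM or more; each point is a gene and the dotted line marks equal differences. Hypoxia genes (red) lie above the line, histones (yellow) to the right of it near a scramble difference of 0, and mitochondrially encoded genes (blue) below 0 in both pairs.

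The likeness of the pairs grew with expression. Across all 25807 genes the pair differences had a Pearson r of 0.236, across the 11136 genes at a mean of 5 CPM or more 0.664, and across the 4788 genes at 50 CPM or more 0.724. Genes are not independent replicates, and the values are a description. Among genes at 5 CPM or more, 68.4% had the same sign in both pairs, and the medians were 0.12 in the knockdown pair and -0.04 in the scramble pair. These medians are the background for the group values below. Among the 14370 genes at a mean of 1 CPM or more, a difference of at least 1, or 2-fold, was seen upward in 18 genes (0.125%) and downward in 134 (0.932%) of the knockdown pair. In the scramble pair 123 genes (0.856%) were higher and 82 (0.571%) lower by as much. The larger class thus lay below 0 in the knockdown pair and above 0 in the scramble pair. In both pairs together, 8 genes were higher and 42 lower by at least 1, and no gene moved by that much in opposite directions.

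The genes that were lower in both replicate 2 libraries included 3 primary transcripts of well-studied microRNAs. DLEU2 carries MIR15A and MIR16-1, a pair that limits BCL2 and cyclins. MIR17HG carries the MIR17 to MIR92A1 cluster, which promotes growth in many tumours. DNM3OS, which runs antisense to DNM3, carries MIR199A2 and MIR214. The mature products below, from RefSeq on GRCh38.p14, are shown because they state which seed families these transcripts supply. Capitals mark the seed, bases 2 to 8, and all are written 5′ to 3′.
hsa-miR-15a-5p (DLEU2): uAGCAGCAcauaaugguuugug
hsa-miR-16-5p (DLEU2): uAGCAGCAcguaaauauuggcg
hsa-miR-17-5p (MIR17HG): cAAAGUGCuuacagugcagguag
hsa-miR-20a-5p (MIR17HG): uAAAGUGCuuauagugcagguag
hsa-miR-19a-3p (MIR17HG): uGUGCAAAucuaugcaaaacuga
hsa-miR-19b-3p (MIR17HG): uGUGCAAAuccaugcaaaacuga
hsa-miR-92a-3p (MIR17HG): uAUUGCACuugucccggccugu
hsa-miR-199a-5p (DNM3OS): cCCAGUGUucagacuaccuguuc
hsa-miR-214-3p (DNM3OS): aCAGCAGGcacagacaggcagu
miR-15a-5p and miR-16-5p share a seed, as do miR-17-5p and miR-20a-5p, and miR-19a-3p and miR-19b-3p. Mature microRNAs were not measured, and the values that follow are those of the long host transcripts.

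DLEU2 (chr13:49982549-50125541) read 10.5, 2.01, 14.8 and 2.21 CPM. Both replicate 2 libraries lay below both replicate 1 libraries, and the difference of -2.56 (SE 0.17, adjusted p = 1.34e-49) was the largest in size among called genes at 5 CPM or more. The gene overlaps TRIM13, KCNRG and DLEU1, whose reads may be shared with it, and in the authors' combined matrix its pair differences were -1.29 and -1.60. MIR17HG (chr13:91347687-91354577) read 12.8, 3.74, 11.1 and 4.94 CPM (difference -1.47, SE 0.15, adjusted p = 4.01e-18). DNM3OS (chr1:172136879-172144835) read 49.5, 15.6, 41.0 and 19.1 CPM (difference -1.39, SE 0.13, adjusted p = 2.77e-22). In both the ranges of the replicate numbers did not overlap. MIR181A1HG (-0.71) and LINC00461 (-0.60), the hosts of MIR181A1 and of MIR9-2, also fell. Among 50 tested lncRNAs that contain a microRNA hairpin, 5 were called lower (10.0%) and 3 higher, against 31 lower (2.5%) and 9 higher of 1239 other lncRNAs. This grouping was made after the values of DLEU2 and MIR17HG had been seen. Both are among the 5, so the share in part restates that choice, and it is given without a test. At a mean of 1 CPM or more, 5 of 26 lncRNAs with a hairpin (19.2%) and 25 of 494 others (5.06%) were called lower. FTX, another host, had pair differences of -0.94 and 0.11 and was not called.

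Protein-coding genes with large differences of the same sign in both pairs had varied roles. SRP9, a subunit of the signal recognition particle that binds the Alu domain of 7SL RNA, read 184, 67.1, 186 and 86.6 CPM (difference -1.28, SE 0.16, adjusted p = 1.97e-13). GMFB, glia maturation factor beta, read 220, 94.1, 214 and 93.2 CPM, almost the same drop in each pair (-1.23 and -1.20). ZRANB2, a zinc finger splicing factor, also fell evenly (-1.12 and -1.06). GMFB and ZRANB2 lie outside the rule for named genes and were chosen after their values were seen. PCLAF, listed as KIAA0101, is a PCNA-binding protein of S phase and read 22.2, 7.84, 33.8 and 10.8 CPM (difference -1.57). BMI1, a Polycomb subunit, read 56.7, 21.04, 50.6 and 22.9 CPM (-1.29). TMED7, a cargo receptor of the early secretory pathway, read 39.0, 11.6, 63.1 and 24.4 CPM (-1.56). NDUFC2, a subunit of respiratory complex I, read 28.5, 9.55, 27.2 and 9.61 CPM (-1.54). In all of these each replicate 2 library lay below both replicate 1 libraries. BMI1, TMED7 and NDUFC2 each overlap an annotated readthrough gene (COMMD3-BMI1, TMED7-TICAM2 and NDUFC2-KCTD14), so that reads could be split between the 2 names. NECAB1 (-1.65), IER3IP1 (-1.37), LYRM5 (-1.24) and C14orf39 (-1.55) completed the largest decreases. In the combined matrix C14orf39 differed by only -0.41 and -0.27 in the pairs.

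Among the genes called higher, APOE, the lipid carrier of remnant lipoproteins, had the largest difference at 5 CPM or more. It read 2.96, 6.08, 2.62 and 8.37 CPM (difference 1.36, SE 0.17, adjusted p = 4.81e-12). ALKBH7, a mitochondrial dioxygenase involved in programmed necrosis, rose almost equally in the pairs, at 14.8, 27.4, 14.5 and 27.7 CPM (0.91, SE 0.13, adjusted p = 2.09e-09). HOXB9, a homeobox factor, read 6.37, 12.4, 7.48 and 16.03 CPM (1.03, SE 0.14, adjusted p = 3.02e-10). The cell adhesion gene SDK2 (0.88), the Notch target HES4 (0.87) and the ephrin EFNA3 (0.91) also rose. In APOE, ALKBH7 and HOXB9 the replicate numbers did not overlap. Levels of EFNA3 and of RIMKLA (1.01), a ligase that makes N-acetylaspartylglutamate, moved more in the scramble pair (1.37 and 1.53) than in the knockdown pair (0.44 and 0.48).

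Mitochondrially encoded transcripts fell together. Of 15 tested, 14 were called lower in replicate 2 and none higher, and all 15 had a negative difference in both pairs. The median was -0.83 in the fit, -1.11 in the knockdown pair and -0.70 in the scramble pair, against 0.01 over all genes tested. In the combined matrix, where MT-RNR1 and MT-RNR2 had no value, 8 members were called lower. MT-RNR2, the large mitochondrial ribosomal RNA, read 667, 273, 1682 and 730 CPM (difference -1.25, SE 0.20, adjusted p = 1.09e-07). MT-RNR1, the small one, read 92.7, 32.8, 303 and 138 CPM (-1.32, SE 0.16, adjusted p = 8.43e-14). For both the scramble libraries were the higher ones, so scramble 2 lay above knockdown 1 although each pair fell. MT-ATP6, a subunit of ATP synthase, read 41.7, 19.2, 61.6 and 30.9 CPM (-1.06), and its replicate 2 libraries lay below both replicate 1 libraries. MT-ND1 (-1.29 and -0.51), MT-ND2 (-1.37 and -0.26) and MT-ND6 (-1.24 and -0.17), which encode complex I subunits, were lower chiefly in the knockdown pair. MT-CO1, a subunit of cytochrome c oxidase, was the member not called (-0.46, adjusted p = 0.146). Together the 15 genes held 0.349%, 0.163%, 0.504% and 0.309% of all counts, a ratio of replicate 2 to replicate 1 of 0.466 in the knockdown pair and 0.614 in the scramble pair. Fewer mitochondria and less RNA in each cannot be told apart in such totals, just as fewer cells of a type and less RNA per cell cannot. Among nuclear genes of the respiratory chain NDUFC2, described above and not on the list, fell, but most listed genes were not called. Of 42, SDHD was called lower (-0.68) and ATP5D (0.53) and NDUFA2 (0.39) higher, at medians of 0.17 and 0.04 in the knockdown and scramble pairs. The combined matrix called 10 higher and 1 lower, beside 1218 and 1508 of all 19420 genes. Of 30 mitochondrial ribosomal protein genes MRPL1 was called lower (-0.43) and none higher. Over all genes tested 3.2% were called higher and 4.13% lower. The edgeR counts of both nuclear lists lay near these shares and mark nothing particular to them.

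**Figure D2:**
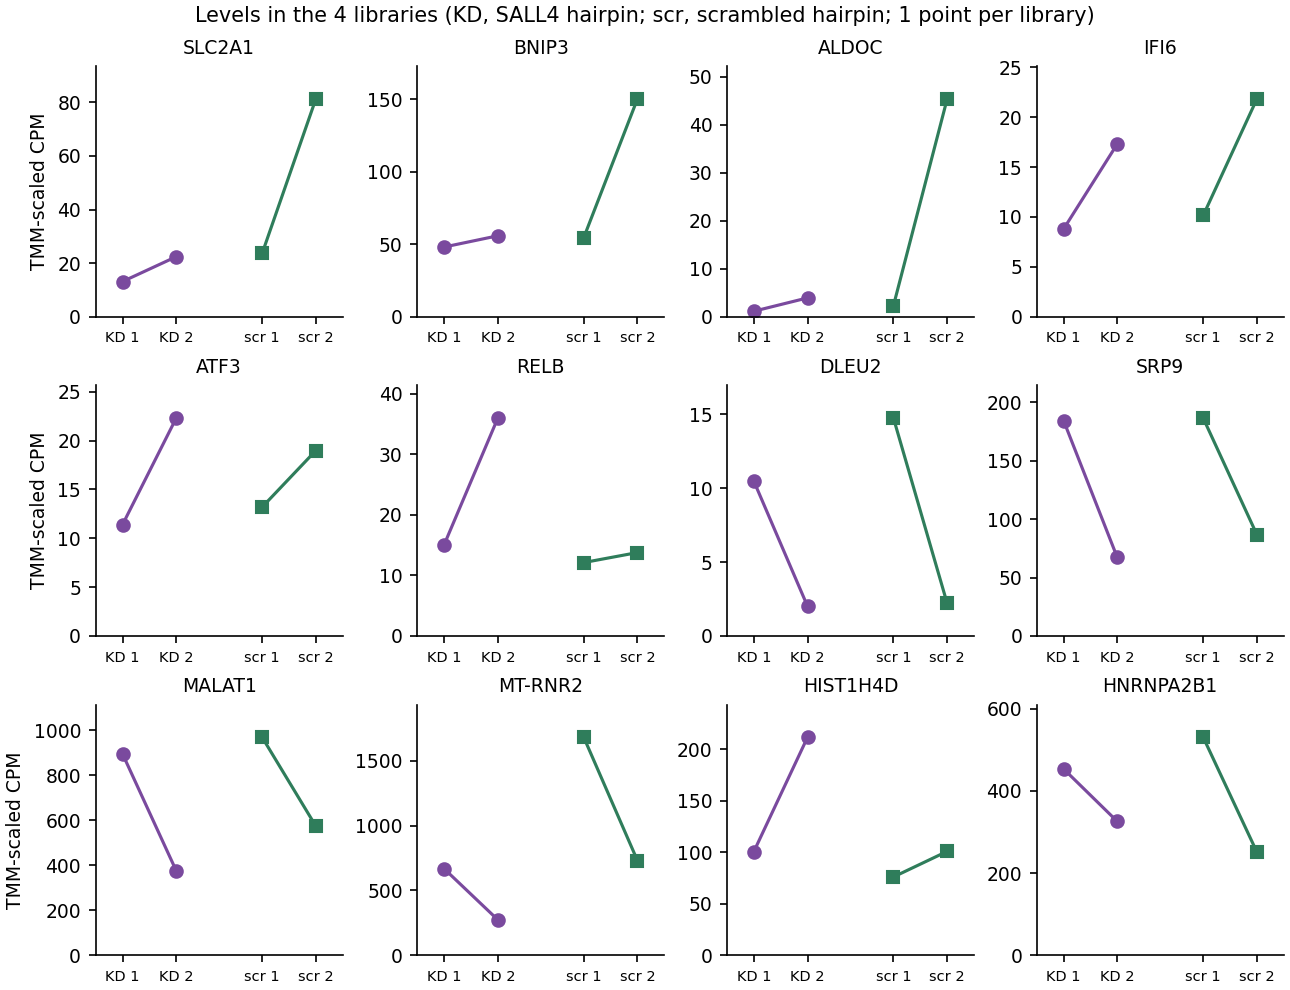
TMM-scaled CPM (linear axes from 0) of 12 genes in the 4 libraries, 1 point per library, with lines joining replicate 1 to replicate 2 of a hairpin. SLC2A1 rises in both pairs, BNIP3 in the scramble pair and RELB in the knockdown pair, while DLEU2, SRP9, MALAT1 and MT-RNR2 fall in both.

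Nuclear and small noncoding RNAs moved unequally. MALAT1, an abundant nuclear lncRNA of splicing speckles, read 894, 375, 968 and 573 CPM (difference -1.005, SE 0.19, adjusted p = 2.55e-05), with no overlap of the replicate numbers. Of its list of 22 snoRNA hosts and nuclear noncoding RNAs, SNHG3 (-0.50) was the other member called, and none was called higher. SNHG3 fell chiefly in the knockdown pair, by -0.87, against -0.13 in the scramble pair. NEAT1, the scaffold of paraspeckles, read 155, 60.5, 121 and 187 CPM, which is -1.35 in the knockdown pair and 0.64 in the scramble pair, and it was not called (adjusted p = 0.931). Of 159 snoRNAs tested 18 (11.3%) were called lower and 1 higher, at medians of -0.58 in the knockdown pair and -0.32 in the scramble pair. Of 174 microRNA genes 11 (6.32%) were called lower and 0 higher. Their medians were -0.44 in the knockdown pair and 0.01 in the scramble pair. Over all genes tested 4.13% were called lower and 3.2% higher. Many of these genes lie within a host gene, whose reads cannot be told apart from theirs at an unknown strand setting. The 35 structural small RNAs held 7.55%, 9.73%, 6.75% and 8.62% of counts, a ratio of 1.29 and 1.28. RN7SL1, the RNA of the signal recognition particle and the most abundant of them, read 20790, 35790, 20910 and 30770 CPM (0.67, SE 0.29, adjusted p = 0.157). RPPH1, the RNA of ribonuclease P, read 14750, 23880, 15620 and 20450 CPM (0.54, SE 0.28, adjusted p = 0.262). Both were higher in replicate 2 without overlap, and neither was called. RN7SK, RN7SL2 and the elongation factors EEF2 and EEF1A1, the next most abundant, were not called either. Of the 28 small RNAs tested, SCARNA10 was called higher (0.46) and SCARNA7 lower (-0.58).

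**Figure D3:**
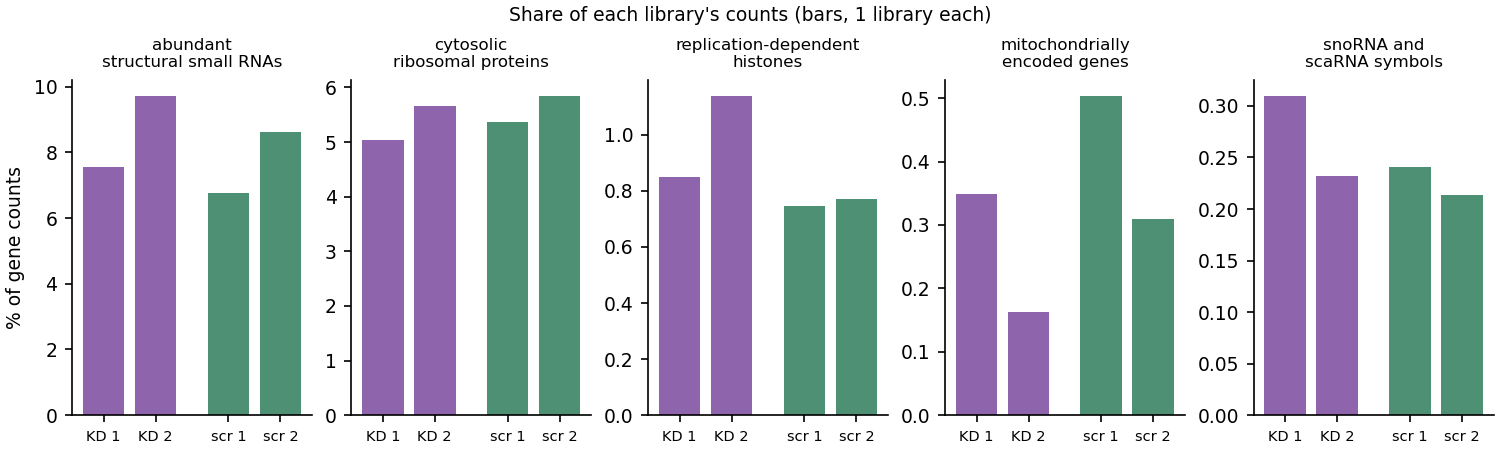
Percent of each library's gene counts held by 5 gene groups (bars from 0, 1 library each, separate axes). Mitochondrially encoded genes and snoRNA and scaRNA symbols hold less, and structural small RNAs more, in replicate 2 of both hairpins, while the histone share is 0.848% and 1.14% in the knockdown pair and 0.747% and 0.771% in the scramble pair.

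The hypoxia response was higher in replicate 2 chiefly in the scramble pair, and its knockdown median lay little above that of all genes. Over all genes at 5 CPM or more the medians were -0.04 in the scramble pair and 0.12 in the knockdown pair. Of 42 genes, 16 were called higher and none lower, beside 3.2% and 4.13% of all genes tested. All 42 were above 0 in the scramble pair (median 0.87) and 31 in the knockdown pair (median 0.21), and 40 of 42 had the larger value in the scramble pair. DESeq2 and the combined matrix each called 10 members higher, and the test restricted to genes at 5 CPM or more called 8. SLC2A1, the glucose transporter GLUT1 (chr1:42925353-42958868), read 13.2, 22.4, 23.6 and 81.2 CPM (difference 1.28, SE 0.13, adjusted p = 1.54e-17). Scramble 2 was the highest library by a wide margin, and knockdown 2 lay just below scramble 1. STC2, a secreted glycoprotein of calcium and phosphate balance (chr5:173314723-173328414), read 29.4, 43.4, 39.4 and 123 CPM (1.10, SE 0.14, adjusted p = 1.04e-11). RAB20, a small GTPase, read 0.532, 0.945, 1.18 and 5.13 CPM (1.52, SE 0.24, adjusted p = 6.34e-08). FAM162A, a HIF target linked to apoptosis, read 29.9, 36.5, 34.2 and 80.3 CPM (0.76). ANGPTL4, an inhibitor of lipoprotein lipase, read 1.92, 3.16, 7.89 and 16.2 CPM (0.89). In the last, each pair rose but both scramble libraries lay above both knockdown libraries.

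Some hypoxia genes differed in the scramble pair and hardly in the knockdown pair. BNIP3 (chr10:131967684-131981923), a mitophagy receptor, read 48.1, 55.8, 54.5 and 150 CPM, a difference of 0.22 in the knockdown pair and 1.46 in the scramble pair. Its relative BNIP3L read 4.72, 4.85, 24.0 and 50.9 CPM, and the lipid droplet protein HILPDA 20.03, 22.4, 18.9 and 48.7 CPM. ENO2, a glycolytic enolase, read 41.7, 43.4, 55.4 and 114 CPM. PPFIA4, a liprin, stood at 6.47, 6.51 and 6.56 CPM in 3 libraries and at 25.7 CPM in scramble 2. The cyclin CCNG2 (0.01 and 1.36), ANKZF1 (0.20 and 1.41) and DPYSL4 (0.21 and 1.28), which are on none of the lists, had the same shape. By the rule for a one-pair move, at least 1 in one pair and within 0.25 of 0 in the other, 30 genes were higher in the scramble pair only and 7 lower. The difference between the pairs could not be tested, since each combination of hairpin and number is 1 library. Some of the largest differences were not called, because the pairs disagreed so much that the robust fit gave them a wide error. DDIT4, an inhibitor of mTORC1, read 11.9, 21.6, 14.5 and 94.4 CPM (1.79, SE 0.98, adjusted p = 0.652). PFKFB4, a kinase that steers glycolysis, read 11.4, 18.95, 17.4 and 111 CPM (1.71, SE 1.03, adjusted p = 0.674). ALDOC, an aldolase, read 1.17, 3.95, 2.34 and 45.4 CPM (3.11, SE 1.39, adjusted p = 0.604) and was higher in both pairs by 1.75 and 4.27. Other HIF targets had smaller differences and were not called, among them VEGFA (0.16 and 0.21), NDRG1 (0.14 and 0.14) and KDM3A (-0.02 and 0.44), the last with the larger value in the scramble pair.

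Promoters of 3 called hypoxia genes are shown because HIF binds a short core, and the reader can see where these letters lie. They and SLC2A1, whose window is not printed, were taken by smallest adjusted p among called members with a promoter sequence. The core searched was ACGTG or GCGTG on both strands, in the 250 bases before the start that RefSeq gives on GRCh38.p14, and capitals mark each match, with overlapping matches running together. All are printed 5′ to 3′ on the strand of the gene.
STC2 (minus strand, chr5:173328415-173328664): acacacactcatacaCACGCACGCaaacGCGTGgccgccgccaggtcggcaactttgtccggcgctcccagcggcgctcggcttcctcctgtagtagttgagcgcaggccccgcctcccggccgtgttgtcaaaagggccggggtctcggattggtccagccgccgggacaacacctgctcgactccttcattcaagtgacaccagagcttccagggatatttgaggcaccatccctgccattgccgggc
FAM162A (plus strand, chr3:122383932-122384181): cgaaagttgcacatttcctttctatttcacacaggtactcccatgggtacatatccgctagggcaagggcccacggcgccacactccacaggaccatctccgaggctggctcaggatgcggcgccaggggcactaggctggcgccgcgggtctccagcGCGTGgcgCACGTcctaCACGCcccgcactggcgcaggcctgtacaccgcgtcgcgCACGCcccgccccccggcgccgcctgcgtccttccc
ANGPTL4 (plus strand, chr19:8363905-8364154): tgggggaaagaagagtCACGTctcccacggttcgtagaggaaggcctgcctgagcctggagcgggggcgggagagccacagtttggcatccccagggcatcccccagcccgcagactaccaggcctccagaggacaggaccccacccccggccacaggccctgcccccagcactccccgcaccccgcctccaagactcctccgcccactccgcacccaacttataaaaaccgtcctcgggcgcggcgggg
STC2 held 3 cores, FAM162A 4 and ANGPTL4 1, and the same window of SLC2A1 held 0. Of the 42 hypoxia genes 33 had a promoter in the table, and 25 of these (75.8%) held a core. Among the called members it was 9 of 12 (75.0%), no higher than in the whole list. The share was 59.9% of 8910 tested genes at 5 CPM or more, 43.1% of all 27305 promoters, and 57.1% of the 21 glycolysis genes with a promoter. A match is a description of letters and not a binding site.

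Glycolysis genes, which overlap the hypoxia programme, moved the same way. Of 22, 5 were called higher and none lower, at medians of 0.25 and 0.47 in the knockdown and scramble pairs. PGK1, phosphoglycerate kinase, read 385, 456, 519 and 941 CPM (difference 0.55, SE 0.19, adjusted p = 0.0475). PFKL, the liver phosphofructokinase, read 88.2, 116, 114 and 174 CPM (0.50), and the phosphoglucomutase PGM1 differed by 0.25 and 0.84 in the pairs. The fifth called gene, LDHB, was below 1 CPM in every library. LDHA, the lactate dehydrogenase of hypoxic cells, differed by -0.07 and 0.13 and was not called. Of 16 pentose phosphate and serine one-carbon enzymes, edgeR and DESeq2 called 0 (1 at an unadjusted p under 0.05), while the test at 5 CPM or more called 5 higher and 1 lower and the combined matrix 4 higher and 1 lower.

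Lipid synthesis genes were partly higher in both pairs. Of 12 fatty acid genes 3 were called higher and none lower. SCD, the stearoyl-CoA desaturase, read 1702, 2388, 2293 and 4245 CPM (difference 0.69, SE 0.23, adjusted p = 0.0352). FADS2 (0.59) and SREBF1 (0.57), the regulator of this pathway, were the others. FASN, fatty acid synthase, had equal pair differences of 0.56 and 0.55 and missed the threshold (adjusted p = 0.0716). Of 24 cholesterol genes 6 were called higher and 2 lower. TM7SF2 (0.61), CYP51A1 (0.55), LSS (0.55), HSD17B7, MVD and SREBF2 rose, whereas SC5D (-0.53) and IDI1 (-0.45), enzymes of the same route, fell. LSS rose chiefly in the scramble pair, by 0.89, against 0.22 in the knockdown pair. Over all genes tested 3.2% were called higher and 4.13% lower.

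Stress and inflammatory genes had larger medians in the knockdown pair. All genes at 5 CPM or more did so too, at 0.12 in the knockdown pair and -0.04 in the scramble pair. Part of each gap is thus shared by all genes. Over all genes tested 3.2% were called higher and 4.13% lower. Among the 11136 at 5 CPM or more the same fit called 590 higher and 732 lower. Of 31 genes induced by unfolded proteins or by the integrated stress response, 7 were called higher and 1, DNAJB9 (-0.50), lower, at medians of 0.29 and 0.03, and 3 of 31 had the larger value in the scramble pair. ATF3, a stress-induced transcription factor, read 11.4, 22.3, 13.2 and 18.99 CPM (difference 0.75, SE 0.13, adjusted p = 3.21e-06). The pseudokinase TRIB3 read 68.9, 132, 113 and 167 CPM (0.75, SE 0.15, adjusted p = 6.68e-05), and SESN2 rose by 0.74 and 0.60 in the pairs. Of 35 immediate early genes 5 were called higher, among them JUN (0.84 and 0.46) and JUND (0.54 and 0.64), while FOSB fell (-0.98 and -0.36). The medians were 0.35 and 0.01. Of 27 p53 targets 7 were called higher and 3 lower, at medians of 0.20 and 0.05, about as far apart as those of all genes. CDKN1A, the cell cycle inhibitor p21, read 28.1, 46.3, 30.3 and 38.8 CPM (0.54). Of 18 NF-kB and inflammatory genes 4 were called higher and none lower. TNFAIP3, the inhibitor A20, rose in each pair (0.97 and 0.72). RELB (chr19:45001464-45038192), a subunit of the noncanonical NF-kB pathway, read 15.1, 36.0, 12.1 and 13.8 CPM, a difference of 1.26 in the knockdown pair and 0.18 in the scramble pair. It was the largest rise restricted by the one-pair rule to the knockdown pair at 5 CPM or more. NFKB2, its precursor partner, differed by 0.74 and 0.37.

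Interferon-induced genes had similar differences in the pairs. The counts in this paragraph stand beside 3.2% called higher and 4.13% lower over all genes tested. Of 31 tested 8 were called higher and none lower, with medians of 0.36 in the knockdown pair and 0.30 in the scramble pair. IFI6 read 8.79, 17.3, 10.2 and 21.8 CPM (difference 1.04, SE 0.13, adjusted p = 7.93e-12), without overlap of the replicate numbers. IFI35 (0.65 and 0.70), the ubiquitin-like ISG15 (0.48 and 0.60) and IFIT1 (0.55 and 1.05) also rose. STAT2 and the sensor IFIH1 were not called, and MX1 was below 0.1 CPM in every library. Of 35 collagen and matrix genes 5 were called higher and none lower, with medians of 0.23 and 0.25. COL5A1 (0.62 and 1.49) and FBN1 (0.80 and 0.39), a fibrillin, were among them. Of 32 adhesion genes and matrix proteases 6 were called higher, among them TIMP3 (0.48 and 0.87) and the integrin ITGA5 (0.67 and 0.36).

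Histone values were higher in replicate 2 in the knockdown pair and centred near 0 in the scramble pair. Of 50 replication-dependent histone genes tested, 49 were above 0 in the knockdown pair, at a median of 0.55, and 22 in the scramble pair, at a median of -0.03. HIST1H4D (H4C4) read 101, 212, 76.0 and 101 CPM (difference 0.74, SE 0.15, adjusted p = 1.09e-04) and HIST3H2BB rose in both pairs (0.42 and 0.47). These 2 were the members called in the edgeR fit. The count was 2 with DESeq2, 10 with TMM computed without mitochondrial and small structural RNAs, 14 at 5 CPM or more and 28 of 51 with the combined matrix, with none lower. HIST1H2BC, near the list's median in both pairs, read 120, 173, 119 and 117 CPM, with 1 high library and an adjusted p of 0.371. Histone families hold near-identical copies, so reads may be split among them. Of 78 cytosolic ribosomal protein genes, 75 were above 0 in the knockdown pair (median 0.28) and 51 in the scramble pair (median 0.06). Over all genes at 50 CPM or more the medians were 0.13 and -0.08, about as far apart, so this gap is not particular to them. No ribosomal protein gene was called in the edgeR fit (4 at an unadjusted p under 0.05), while DESeq2 called 3 higher. The test at 5 CPM or more called 18 higher and 1 lower, and the combined matrix 30 higher and 1 lower. Over all genes these settings called 1297 of 11137 and 1218 of 19420 higher. In the knockdown pair only, 5 genes were higher and 26 lower by the one-pair rule. The lower ones included the golgins GOLGA8A, at 33.8, 15.2, 27.7 and 28.9 CPM, and GOLGA8B, at 27.1, 11.6, 23.5 and 21.8 CPM, near-identical copies on chromosome 15 whose reads cannot be assigned with certainty. MIR34A, a p53-induced microRNA gene, read 14.4, 6.71, 7.70 and 8.12 CPM, so that knockdown 1 was the high library, and RUSC1-AS1 read 9.04, 4.08, 9.97 and 9.53 CPM. All 4 were called lower, although the scramble difference was -0.11 to 0.08. In the scramble pair only, NPM1P27, a pseudogene of the nucleolar protein NPM1, was lower at 9.42, 8.27, 19.7 and 9.27 CPM, and TFPI2 at 3.95, 4.58, 9.68 and 4.74 CPM was not called.

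**Figure D4:**
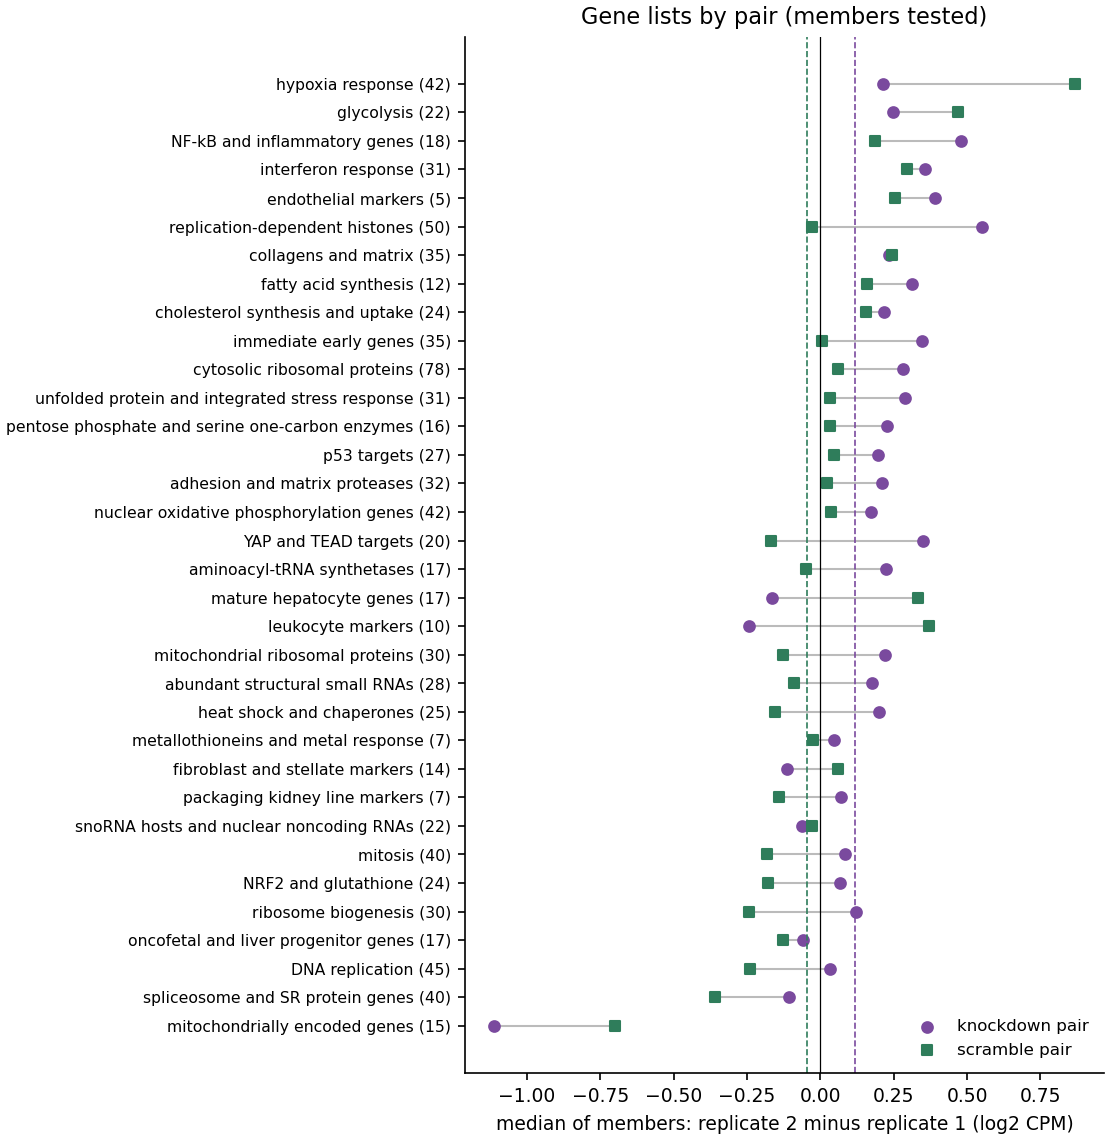
Median replicate difference (log2 CPM) of each gene list with at least 5 tested members in the knockdown pair (purple circles) and the scramble pair (green squares), with the number of members tested; dashed lines mark the medians of all genes at 5 CPM or more, 0.12 and -0.04. Of the lists plotted, hypoxia genes lie farthest right in the scramble pair (0.87), histones farthest right in the knockdown pair (0.55), and mitochondrially encoded genes far left in both.

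Genes of RNA processing and growth had lower medians in the scramble pair than in the knockdown pair. All genes at 50 CPM or more did so too, at 0.13 in the knockdown pair and -0.08 in the scramble pair. Much of each gap is thus shared by abundant genes. How many were called depended on the genes tested. At 5 CPM or more, 19 of 39 spliceosome genes, 13 of 40 mitosis genes and 9 of 45 DNA replication genes were called lower. Over all genes of that test 1737 of 11137 were called lower, so the replication count lay little above that share. With the combined matrix the counts were 12, 8 and 5, beside 1508 of all 19420 genes. The counts that follow are those of the edgeR fit on all genes. In that fit 732 of 11136 genes at 5 CPM or more were called lower. Of 40 spliceosome and SR protein genes 4 were called lower and none higher, at medians of -0.11 and -0.36. HNRNPA2B1, an abundant RNA-binding protein, read 454, 326, 531 and 251 CPM (difference -0.78, SE 0.18, adjusted p = 7.61e-04). LUC7L3 (-0.74 and -0.57), SRSF10 and SRSF11 were the others. Of 30 ribosome biogenesis genes GAR1, of the H/ACA snoRNP, was called lower (-0.58 and -0.99) and none higher. Of 45 DNA replication genes 2 were called lower, CCNE2 (-0.39 and -0.77) and RFC3, and of 40 mitosis genes 3, HMMR, MAD2L1 and ECT2 (-0.33 and -0.53), with none higher in either list. In the scramble pair 4 of the 45 replication genes and 6 of the 40 mitosis genes were above 0, against 29 and 23 in the knockdown pair. Of 25 heat shock genes HSPA6, a strictly inducible HSP70, was called higher at 1.154, 5.06, 1.71 and 2.52 CPM, and DNAJB4, CHORDC1 and HSPE1 lower. Of 24 NRF2 and glutathione genes GCLM was called lower (-0.50). The zinc exporter SLC30A1 fell (-0.69) while the metallothioneins MT2A (0.57) and MT1E (0.70) rose, 3 calls among 7. The edgeR fit called no member among 17 aminoacyl-tRNA synthetases, 20 YAP and TEAD targets and 17 oncofetal genes, of which 0, 3 and 8 had an unadjusted p under 0.05. DESeq2 called 0, 0 and 1 of these lists' members, and the combined matrix called 2 synthetases higher, 1 YAP target higher and 2 lower, and 4 oncofetal genes lower.

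The summed level of endothelial markers was 4.463 to 7.007 CPM. None of 10 leukocyte, 5 endothelial, 3 erythroid and 7 kidney line markers that passed the filter was called by edgeR or DESeq2, with 2, 0, 0 and 0 at an unadjusted p under 0.05. Of 14 fibroblast and stellate markers RGS5 (-0.81), LUM (-0.59) and DCN (-0.43) were called lower and none higher. The median of the list was 0.17 in the fit, -0.12 in the knockdown pair and 0.06 in the scramble pair, where 9 of 14 were above 0. LUM, a matrix proteoglycan, read 127, 99.4, 242 and 136 CPM, so the cells of every library hold such transcripts. The summed level of the list was 1219, 1118, 1300 and 1125 CPM, and its part in the other results was not tested. Of 17 tested hepatocyte genes APOE was called higher and TDO2 (-0.74) lower.

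Position and structure of genes were compared in 10484 protein-coding genes at 5 CPM or more. The median span was 32746 bp in all of them, 17784 bp in those called higher and 35229 bp in those called lower. In the shortest decile 11.5% of genes were called higher and 2.86% lower, and in the eighth decile, at a median of 77200 bp, 3.05% and 8.02%. Spearman's rho of span with the pair difference was -0.181 in the knockdown pair and -0.148 in the scramble pair. In the plot of pair difference by gene span, both pairs had their lowest median in the eighth decile, and the knockdown pair lay above the scramble pair throughout. Promoter GC content, known for 83.5% of these genes, had a rho of 0.099 and 0.142, and the share called higher rose from 3.42% in the lowest decile to 7.99% in the highest. The points share libraries and depth, so no p is given.

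**Figure D5:**
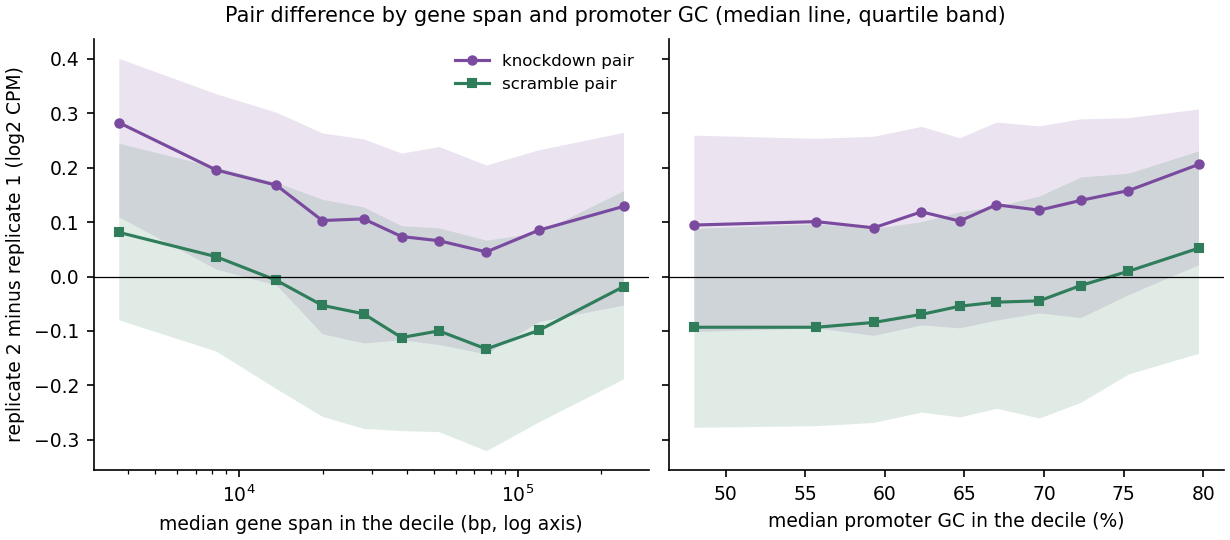
Median replicate difference (log2 CPM) of protein-coding genes at 5 CPM or more in deciles of gene span (left, log axis, bp) and of promoter GC (right, %), for the knockdown pair (purple) and the scramble pair (green), with quartile bands. The shortest genes lie highest in both pairs, at medians of 0.283 and 0.0813.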

How the data were processed

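The deposited files hold raw counts per gene symbol, 1 table per library. Trim Galore 0.4.5, STAR and featureCounts, and the build hg38, are among the entries of the submitters' processing notes. The annotation release and strandedness of counting are not stated there, so that reads of a gene and an overlapping or antisense one cannot be separated. The authors' combined matrix of counts has other totals and was used as an alternative. Symbols were matched to RefSeq (GRCh38.p14), with 19232 of the 25807 tested genes matched, and 28 symbols of the files are dates.

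Genes passed filterByExpr, library sizes were adjusted by TMM, and the robust quasi-likelihood test of edgeR 4.0.16 under R 4.3.3 was run with hairpin and replicate number as terms, n = 2 libraries per number, Benjamini-Hochberg adjustment and a threshold of 0.05. Pair differences are log2 TMM-scaled CPM with a prior count of 2, and have no test. The depth of 158934493 to 225624957 counts makes counting error small for most genes named, but not for those far below 1 CPM, such as LDHB. The script was tested on simulated data.

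Genes named are SALL4, the 12 largest differences in each direction (RefSeq symbol, 5 CPM or more, called, same sign in both pairs), up to 4 called members of each of 35 gene lists by adjusted p, up to 8 one-pair genes per direction, and the 6 most abundant; other genes named were chosen after their values were seen. The members and lists were chosen with earlier results of these data known. Alternatives were RLE scaling, TMM without mitochondrial and small structural RNAs, other filters, DESeq2 1.42.0, limma-voom (limma 3.58.1), a non-robust fit, no hairpin term, leaving out each library, and the combined matrix. The SALL4 binding data were not used here.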

Additional observations from a re-analysis of the deposited data

Results flagged for a closer look

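In 6 gene lists the median replicate difference had opposite signs in the pairs, at a size of at least 0.1 in each. The difference between the pairs was not tested, since each combination of hairpin and number is 1 library. Over all genes at 5 CPM or more the medians were 0.12 in the knockdown pair and -0.04 in the scramble pair, so part of each gap is shared by all genes. The scramble pair minus the knockdown pair was -0.518 for YAP and TEAD targets, where 15 of 20 were above 0 in the knockdown pair and 7 in the scramble pair, with AJUBA at 0.51 and -0.25. It was -0.347 for mitochondrial ribosomal proteins, where 0 of 30 members had the larger value in the scramble pair. It was -0.353 for heat shock and chaperone genes and -0.364 for ribosome biogenesis genes. It was 0.499 for mature hepatocyte genes, of which 17 were tested and most were below 1 CPM. It was 0.613 for leukocyte markers, of which 10 were tested and CORO1A, at 5.15, 5.77, 9.30 and 10.5 CPM, held most of the level.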

How the results depend on the processing

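The total of 1892 genes (825 higher, 1067 lower) was 1740 (798, 942) with RLE scaling and 1740 (739, 1001) with limma-voom, 1848 with a non-robust fit, 1292 (570, 722) with DESeq2, 2258 (926, 1332) with TMM computed without mitochondrial and small structural RNAs, 2726 (1218, 1508) with the combined matrix, 1530 (522 higher) without a filter and 3034 (1297, 1737) at 5 CPM or more. Without the hairpin term it was 0 (0 higher, 0 lower). Leaving out a library without the hairpin term gave 0 to 4 calls (0 to 4 higher, 0 to 2 lower), 0 to 2 for hypoxia genes called higher and 0 for mitochondrial genes; with the hairpin term it leaves the other pair alone, with no test. Hypoxia genes called higher, 16, became 8 at 5 CPM or more, 10 with DESeq2, 10 with the combined matrix and 0 without the hairpin term. Mitochondrial genes called lower, 14, became 8 with the combined matrix, where MT-RNR1 and MT-RNR2 had no value, and 0 without the hairpin term. TMM computed without mitochondrial genes gives no value for them. With the combined matrix 48 genes were lower in the scramble pair, 25 lower in both, 3 higher in the knockdown pair only and 4 lower in the scramble pair only, and r was 0.366. In the per-library files r was 0.664 at 5 CPM or more. At 0.6 in place of 1, the one-pair counts were 100 and 147 (knockdown, higher and lower) and 192 and 95 (scramble); with the other pair within 0.5, they were 52 (knockdown lower), 69 and 13 (scramble). Of 109 named called genes, 25 of 107 were not called by DESeq2, 21 of 97 with the combined matrix and 22 of 99 at 5 CPM or more.

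Signs turned without the hairpin term as follows. Without scramble replicate 2: RIMKLA -0.32, FER1L4 -0.29, ANGPTL4 -0.64, BNIP3L -1.57, ENO2 -0.17, IFIT1 -0.18 and COL4A2 -0.079. Without knockdown replicate 2: RUSC1-AS1 0.0065, LDHB -1.51, SC5D 0.033, SNHG3 0.076 and TNFAIP3 -0.39. Without scramble replicate 1 SC5D was 0.16, and without knockdown replicate 1 FOSB was 0.041. In the scramble pair alone GOLGA8A was 0.064 and MIR34A 0.077. These fits set unlike hairpins against each other. For reference, the knockdown calls numbered 1433 without and 4921 with a replicate block; with 2 numbers only, and no label that says what they share, the data cannot establish a pairing.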

Other observations

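Genes of retinoid metabolism and response were among those higher in both replicate 2 libraries. CYP26A1, which degrades retinoic acid, read 1.85, 3.81, 1.11 and 2.32 CPM (edgeR difference 1.06, SE 0.22, adjusted p = 8.21e-05), and DHRS3, a retinaldehyde reductase, 2.29, 4.97, 1.81 and 5.64 CPM (1.37, SE 0.19, adjusted p = 2.25e-10). Of 21 retinoid genes listed after these values had been seen, 18 were tested, 7 were called higher, 1 was called lower, and 11 were above 0 in both pairs. The 7 include CYP26A1 and DHRS3, which prompted the list, so the count in part restates that choice. Over all genes tested 3.2% were called higher and 4.13% lower, and the list was not tested as a set. STRA6, the retinol receptor (0.89 and 0.84), the retinoic acid binding proteins CRABP1 (0.64 and 0.84) and CRABP2 (0.85 and 0.58) and RARG (0.50 and 0.44) were also called higher. RDH10, a retinol dehydrogenase, was called lower (-0.15 and -0.77), and RARB (0.21 and -0.11) was not called.

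At a difference of at least 0.6 in the knockdown pair and within 0.25 of 0 in the scramble pair, the 12 most abundant genes included the dynein heavy chain DYNC1H1, at 879, 1522, 1249 and 1369 CPM, the ribosome assembly factor MDN1, at 233, 451, 310 and 287 CPM, and the ubiquitin ligases BIRC6 (0.77 and 0.11) and HUWE1 (0.80 and -0.04), beside histones and NOTCH2. None of these 4 was called (edgeR adjusted p = 0.0984 to 0.175). They were chosen after their values were seen.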
